A study of Mus musculus with 28 samples.

Results

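Remyelination was compared with peak demyelination in whole mouse brain. Of the 28 RNA-seq libraries of the series, 14 entered the comparison: 7 labelled remyelination (R1 to R7) and 7 labelled demyelination (D1 to D7), chosen by these stage labels alone. All 14 came from TNFR1ff mice, which carry a floxed TNFR1 allele and were backcrossed onto C57BL/6; no Cre driver is given for them, and they were the controls of the study. The demyelination group has the cuprizone code CPZ5 and the remyelination group CPZ6+1, with no unit stated for either code. Another TNFR1ff group, of 7 naive libraries coded CPZ0, is given beside the results as the level without cuprizone. The labels give no age or sex and do not say whether the controls received tamoxifen. By their codes the 2 stages differ both in the length of cuprizone feeding and in its withdrawal, whose parts in the differences cannot be told apart. A further 7 libraries came from remyelination mice with microglial TNFR1 deletion (mgTNFR1KO, Cx3cr1-CreER.Tnfr1ff). They had no part in the contrast but entered the filter on low counts, the scaling and the shared estimate of the spread.

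Cuprizone is a copper chelator that, fed to mice, kills mature oligodendrocytes, the cells that wrap axons in myelin, and myelin is lost from the corpus callosum, the cortex and other regions while microglia and astrocytes become reactive. When feeding stops, oligodendrocyte precursors differentiate and rebuild myelin, and microglia clear myelin debris. Myelin is a stack of membrane rich in cholesterol and galactolipids, held together by a small set of abundant proteins, and mRNAs for these proteins and lipid enzymes are widely used as readouts of mature oligodendrocytes.

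The 14 libraries held 1695221 to 3137254 counts each, so that 3 counts, the smallest number read here as signal, stand for 0.96 to 1.77 CPM, the usual scaling of a count by its library total. Levels below are CPM after TMM scaling, which corrects for differences in composition between libraries. The libraries came from 3′ tags, 1 per transcript, and levels are not compared between genes. Mitochondrial transcripts took 9.9 to 14.12% of the counts in demyelination and 10.28 to 14.2% in remyelination, and the most abundant gene, which has no symbol in the name table, 5.68 to 15.38% and 5.84 to 14.92%. Neuron and synapse transcripts, 41 of 41 measured, summed to 12500 to 15000 CPM in demyelination and 13000 to 15300 CPM in remyelination, and 8 pituitary markers to at most 14.4 CPM in both, so the defining markers of brain were present. The labels do not say that libraries of a group came from separate mice, so the p-values measure the spread between these libraries. In bulk tissue, fewer cells of a type and less RNA per cell cannot be told apart, which holds for every cell-type gene below.

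In a small set of genes, myelin genes rose and some genes of the stress, microglial and astrocyte lists fell between the 2 stages. Most members of the stress, microglial and astrocyte lists did not pass the test. Of 12423 genes tested, 48 (0.386%) were called, meaning a Benjamini-Hochberg adjusted p under 0.05 in edgeR's quasi-likelihood test: 25 higher in remyelination (0.201%) and 23 lower (0.185%). At an unadjusted p under 0.05 there were 826 genes (6.65%), 400 higher and 426 lower. These shares over all genes are the background for every count of list members below. The change was more than 2-fold for 16 called genes, 8 in each direction, and the median log2 fold change of all genes was 0. Over all genes, the 7 remyelination libraries lay entirely above the 7 demyelination libraries for 19 genes (0.153%) and entirely below for 21 (0.169%); among called genes these numbers were 12 and 12. The common biological coefficient of variation, a summary over all genes of the spread between libraries of a group, was 19.5%. The median standard error was 0.188 on the log2 scale. Single genes differed from it, with 0.0962 for Mbp and 1.18 for Arfgap2. The count of lower genes rested in part on single libraries: 13 genes were called lower without R4 and 14 without D4.

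**Figure D1:**
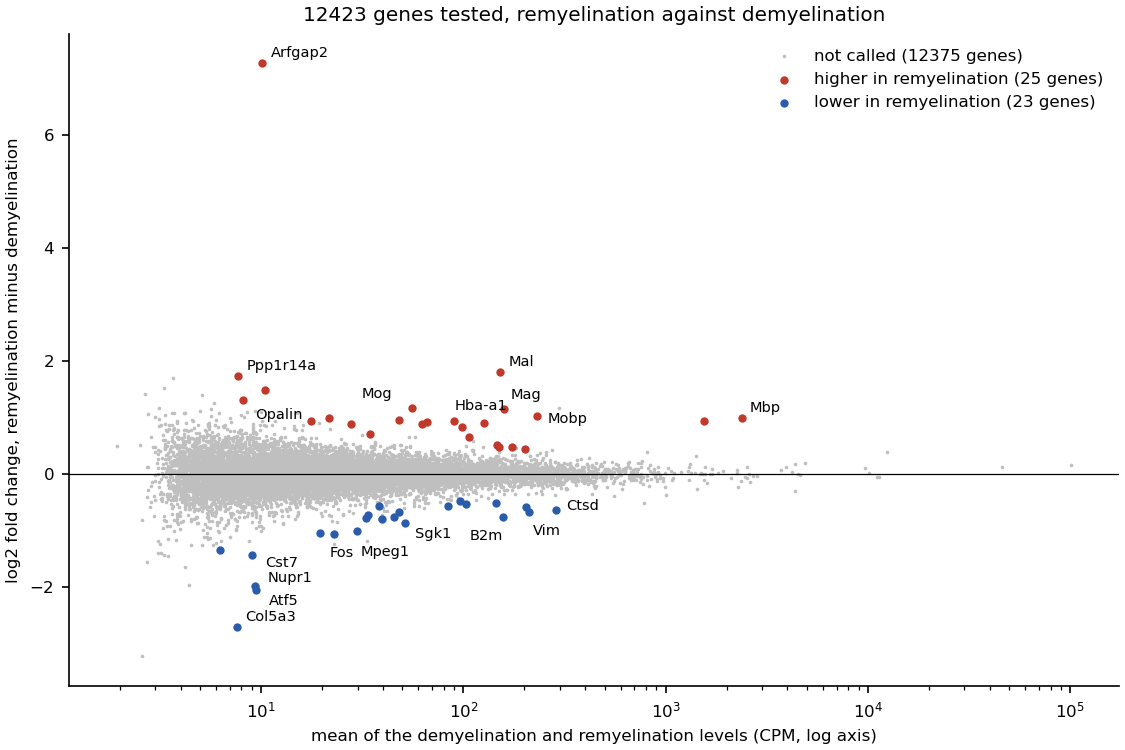
Each point is 1 of the 12423 genes tested; the horizontal axis is the mean of the demyelination and remyelination levels in CPM on a log axis, and the vertical axis the log2 fold change, remyelination minus demyelination. The 25 red points are called higher and the 23 blue points called lower; Mal stands above the other abundant red genes at 1.8, and Arfgap2, at 7.27, is a gene that was near 0 in every demyelination library.

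Structural myelin proteins were the group with most calls. Of 18 measured genes of this list, 10 rose, none fell, and the median log2 fold change was 0.67, beside 0 for all genes and 0.201% of all genes called higher. The summed level of the list was 3620 to 5140 CPM in demyelination, 6420 to 8330 CPM in remyelination and 7660 to 8690 CPM in naive brain. The demyelination and remyelination sums did not overlap, and the remyelination sums overlapped the naive ones.

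Mal (ENSMUSG00000027375.15) encodes a proteolipid that sorts proteins and lipids to the myelin membrane. It stood at 84.8, 69.1, 46.5, 60.5, 94.1, 63.2 and 57.7 CPM in D1 to D7 and at 277, 218, 225, 213, 249, 246 and 229 CPM in R1 to R7. Every remyelination library was far above the highest demyelination library, and the groups did not overlap. The mean rose from 68.0 ± 16.4 to 237 ± 22.2 CPM (SD, n = 7 each), a log2 fold change of 1.8 (SE 0.114, 95% interval 1.57 to 2.03, adjusted p = 7.02e-15). Naive libraries averaged 273 CPM, so Mal went from 24.9% to 86.8% of the naive mean.

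Mbp, myelin basic protein, compacts the cytoplasmic faces of the membrane. Its level was 1410 to 1770 CPM (median 1580) in demyelination and 2720 to 3540 CPM (median 3050) in remyelination, with no overlap, and the fold was 1.98 (log2 0.99, SE 0.0962, adjusted p = 4.56e-09). Every remyelination library thus lay above every demyelination library, and the remyelination mean stood at 103% of naive.

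Mobp, a small basic protein of the major dense line, was at 121 to 204 CPM (median 143) in demyelination and 244 to 353 CPM (median 325) in remyelination (log2 fold change 1.02, SE 0.106, adjusted p = 1.95e-08). Mog, an immunoglobulin-domain protein on the outermost myelin layer, was at 27.2 to 46.1 CPM (median 31.8) and 58.7 to 88.8 CPM (median 80.9), a log2 fold change of 1.16 (SE 0.132, adjusted p = 2.01e-07). Cldn11, the claudin of the tight junctions between myelin layers, was at 46.5 to 84.9 CPM and 94.5 to 150 CPM (0.93, SE 0.123, adjusted p = 6.39e-06). None of these 3 genes overlapped between the stages. Mag, the adhesion protein that faces the axon, had a wider spread: D1 to D7 held 76.0, 128, 106, 136, 58.4, 89.4 and 97.2 CPM and R1 to R7 held 125, 136, 234, 272, 272, 310 and 190 CPM. R1 and R2 lay within the demyelination range and the other 5 above it (log2 fold change 1.15, SE 0.187, adjusted p = 0.00022).

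Cnp, a phosphodiesterase that keeps cytoplasmic channels open in myelin, was at 61.1 to 116 CPM and then 112 to 149 CPM, a rise of 0.66 (SE 0.114, adjusted p = 0.00063). Opalin, a sialylated transmembrane protein of myelin, rose by 1.31 from a low level, 1.58 to 9.16 CPM (median 4.23) against 8.31 to 15.5 CPM (median 11.8; adjusted p = 0.0114, and 0.0587 in a fit of the 14 libraries alone). Plekhb1, a membrane-binding protein of oligodendrocytes and photoreceptors, rose by 0.48 without overlap (adjusted p = 0.00779, and 0.0697 with library totals in place of TMM). Of the 8 members not called, Tspan2 was nearest, with a log2 fold change of 0.69 and an adjusted p of 0.0706. Omg, which also occurs in neurons, was at -0.01, and Gpm6b, a membrane protein that neurons and astrocytes share, at -0.10. Mpp1, a membrane scaffold protein, was the lowest, with 28 ± 4.13 and 21.9 ± 5.31 CPM (-0.36, unadjusted p = 0.0483, adjusted p = 0.739). The upstream sequence of Mog is shown for a motif match. Among the higher genes with such a match, Mog had the smallest adjusted p. Mal and Mobp had smaller ones but no match in their windows. The Mog sequence is the RefSeq window from 250 bases before to 50 after the gene start in GRCm38.p6 (chr17:37023349-37023648, minus strand). The capitals mark a match to CTGGNAC, the core of the motif of the myelin transcription factor MYRF, read on either strand.

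Mog: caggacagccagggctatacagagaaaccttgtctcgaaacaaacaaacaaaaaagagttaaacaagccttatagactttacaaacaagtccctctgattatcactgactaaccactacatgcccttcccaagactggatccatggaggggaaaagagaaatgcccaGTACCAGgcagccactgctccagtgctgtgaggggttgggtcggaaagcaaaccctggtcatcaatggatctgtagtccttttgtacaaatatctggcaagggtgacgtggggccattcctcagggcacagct

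The match begins at position -83 from the start. In the same windows, CTGGNAC was found in 10 of the 20 higher genes that had a window, in 5 of the 20 lower genes and in 20.8% of the 9169 tested genes with a window; it is a short motif, present in 19.28% of 32851 windows of the genome. A match is a string of letters and no evidence of binding.

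**Figure D2:**
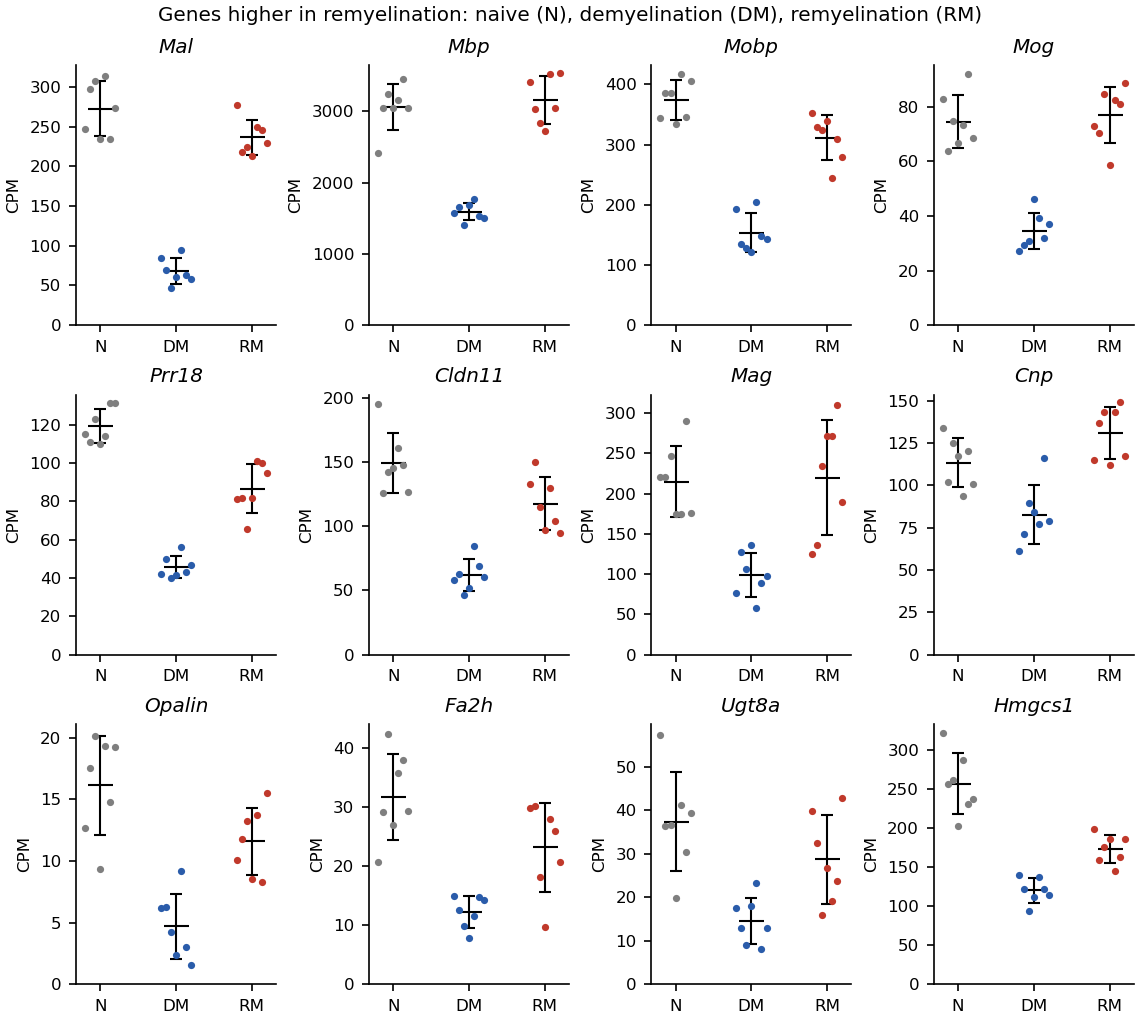
Levels in CPM (vertical axes, each from 0) of 12 genes called higher in remyelination, with 7 naive (N, grey), 7 demyelination (DM, blue) and 7 remyelination (RM, red) libraries as points, the mean as a line and the SD as bars. Mal, Mbp, Mobp, Mog, Prr18, Cldn11 and Hmgcs1 show no overlap between DM and RM, while Mag, Cnp, Opalin, Fa2h and Ugt8a do.

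Mature oligodendrocyte genes other than the structural proteins gave 7 calls among 48 measured, all higher, with a median log2 fold change of 0.38. Of the 48, 26 had an unadjusted p under 0.05 in the higher direction and 1 in the lower. Over all genes, 0.201% were called higher, and 400 of 12423 had an unadjusted p under 0.05 in the higher direction. Prr18, a proline-rich protein of oligodendrocytes, went from 40.0 to 56.0 CPM (median 43.0) to 65.5 to 101 CPM (median 81.8), a log2 fold change of 0.92 (SE 0.109, adjusted p = 3.64e-07). It lay without overlap above demyelination and below the naive mean of 119 CPM (remyelination minus naive -0.46, adjusted p = 0.0142). Gsn, the actin-severing protein gelsolin, rose by 0.89 without overlap, from 32.3 to 63.7 CPM to 69.3 to 89.3 CPM (adjusted p = 3.38e-05).

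Ppp1r14a, an inhibitor of myosin phosphatase found in mature oligodendrocytes and smooth muscle, was at 0.94 to 7.36 CPM and 7.15 to 25 CPM, a log2 fold change of 1.73 (SE 0.343, adjusted p = 0.00548). Its highest value, in R2, was apart from the next at 12.1 CPM, and without R2 the adjusted p was 0.0374. The gene rests on a few counts per library in demyelination, and its remyelination mean was at 93.0% of naive.

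Apod, a lipid-carrying lipocalin, was at 106 to 153 CPM in demyelination and 138 to 210 CPM in remyelination (0.48, SE 0.103, adjusted p = 0.0124). Of the 25 higher genes it alone was called above naive: naive averaged 111 CPM and remyelination minus naive was 0.66 (adjusted p = 8.87e-05). Its call was lost without R2, D4 or D5 and with library totals in place of TMM (adjusted p = 0.0824). Cryab, a small heat shock protein abundant in oligodendrocytes, rose by 0.44 without overlap (138 to 199 against 210 to 265 CPM, adjusted p = 0.0231). Il33, a nuclear alarmin of oligodendrocytes and astrocytes, rose by 0.70 (17.7 to 35.3 against 32.1 to 58.1 CPM, adjusted p = 0.0271). The Cryab call was lost without any of R3, R4, R6, R7, D4, D6 or D7 and the Il33 call without any of R1, R3, R4, D4, D6 or D7, with adjusted p up to 0.101 and 0.127; library totals in place of TMM ended both calls too, with 0.125 for Cryab. Adamtsl4, with 1.70 ± 0.589 and 5.62 ± 2.38 CPM, missed the threshold at an adjusted p of 0.056. Trf, transferrin, which the same cells make, was not called: 273 ± 53.2 CPM in demyelination and 215 ± 38.9 CPM in remyelination (-0.35, 95% interval -0.60 to -0.09, adjusted p = 0.467).

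Another 2 risen genes, outside the lists, are known from oligodendrocytes. Lpar1, a lysophosphatidic acid receptor, was at 17.4 to 44.9 CPM in demyelination and 41.7 to 88.6 CPM in remyelination, with a small overlap, and rose by 0.95 (SE 0.153, adjusted p = 0.000219). Prr5l, a partner of the kinase complex mTORC2, rose by 0.89 without overlap (12.2 to 24.5 against 29.9 to 46.0 CPM, adjusted p = 0.000582).

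Enzymes of myelin lipids gave 2 calls among 25 measured, both higher, with a median of 0.07. Ugt8a makes galactosylceramide, the main glycolipid of myelin, and went from 8.08 to 23.2 CPM (median 13) to 16 to 42.9 CPM (median 26.7), a log2 fold change of 0.99 (SE 0.236, adjusted p = 0.0415). Fa2h, which hydroxylates the fatty acids of these lipids, went from 7.78 to 14.9 CPM (median 12.5) to 9.60 to 30.1 CPM (median 26.0; 0.93, SE 0.218, adjusted p = 0.0317). Both ranges overlapped. The Ugt8a call was lost without any of R1, R2, R4, R6, R7, D2, D3, D4, D6 or D7 and the Fa2h call without any of R1, R2, R5, R6, D2, D3, D4 or D5, with adjusted p up to 0.163 and 0.104; both were lost too in a fit of the 14 libraries alone, and Fa2h with library totals. Gal3st1, which adds sulfate to galactosylceramide, stood at 3.84 ± 1.9 and 6.71 ± 3.57 CPM (0.77, 95% interval 0.00 to 1.54, adjusted p = 0.75).

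Transcription factors of the lineage and genes of its earlier stages gave no call. Among 14 transcription factors of oligodendrocytes none passed edgeR's test, 3 had an unadjusted p under 0.05, DESeq2 called 0, and the median was 0.02. Sox10, the lineage factor, was at 18 ± 4.66 and 24.8 ± 4.82 CPM (0.47, 95% interval 0.04 to 0.89, adjusted p = 0.693), and Myrf, the factor that drives myelin genes, at 35.2 ± 9.94 and 39.0 ± 7.54 CPM (0.14, -0.20 to 0.48). Of 21 genes of newly formed oligodendrocytes none was called by edgeR or DESeq2 (median 0.04). An unadjusted p under 0.05 was found for 2 of them, beside 6.65% of all genes. Bcas1, a marker of early myelinating cells, was at 68.3 to 156 CPM (median 99.9) in demyelination and 86.2 to 123 CPM (median 115) in remyelination, and its log2 fold change of 0.01 has a 95% interval of -0.28 to 0.30. Enpp6 and Gpr17, markers of the cells that are about to myelinate, were at 0.07 each, with intervals of -0.40 to 0.53 and -0.50 to 0.64. Of 18 precursor genes none was called by either tool and 0 had an unadjusted p under 0.05 (median -0.03); Pdgfra, the receptor that marks precursors, was at 23.4 ± 7.05 and 26.8 ± 5 CPM (0.21, -0.22 to 0.63).

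Cholesterol synthesis gave 1 call among 30 measured genes, Hmgcs1, higher, with a median of 0.16; 9 members had an unadjusted p under 0.05 in the higher direction and 1 in the lower. Hmgcs1 (ENSMUSG00000093930.3) encodes a synthase early in the making of cholesterol. It stood at 94.0 to 140 CPM (median 122) in demyelination and 145 to 198 CPM (median 175) in remyelination, without overlap. The rise of 0.52 (log2; SE 0.109) had an adjusted p of 0.00913. Remyelination was still below the naive mean of 256 CPM (-0.57, adjusted p = 0.00163), at 67.5% of it. Idi1, a later enzyme, was at 18.4 ± 9.94 and 17.5 ± 14.6 CPM against 39.8 CPM in naive brain, and ranged from 3.85 to 45.2 CPM within remyelination. Srebf1, which codes for a regulator of lipid synthesis, had the opposite sign, with 50.1 ± 10.7 and 31.4 ± 12.9 CPM (-0.65, adjusted p = 0.158). The window of Hmgcs1 is shown with its match to TCACNCCAC, the sterol regulatory element, in capitals (GRCm38.p6, chr13:119690101-119690400, plus strand).

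Hmgcs1: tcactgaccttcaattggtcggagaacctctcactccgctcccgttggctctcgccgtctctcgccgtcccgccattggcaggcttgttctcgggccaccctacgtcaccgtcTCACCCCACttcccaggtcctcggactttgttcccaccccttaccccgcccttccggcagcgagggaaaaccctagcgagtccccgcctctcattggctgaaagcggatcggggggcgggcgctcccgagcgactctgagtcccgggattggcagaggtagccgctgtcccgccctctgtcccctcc

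The match begins at position -137. TCACNCCAC was found, on either strand, in the windows of 1 of 20 higher genes (Hmgcs1), 1 of 20 lower genes (Tiparp) and 1.36% of tested genes. On the side of cholesterol export and storage, 17 measured genes gave no call in edgeR or DESeq2 and 5 had an unadjusted p under 0.05, all in the lower direction (median -0.19). Abca1, which loads cholesterol onto lipoproteins, was at 79.3 ± 9.06 and 54.8 ± 13.5 CPM (-0.52, adjusted p = 0.13).

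Genes of the integrated stress response, which the factor ATF4 turns on when translation is curbed, held 2 of the 3 largest falls among called genes. Of 15 measured, 2 fell and none rose (median -0.32, 0.185% of all genes called lower), and 7 had an unadjusted p under 0.05, all lower. Atf5 (ENSMUSG00000038539.16), a bZIP transcription factor translated under stress, stood at 18.5, 20.4, 13.2, 8.38, 12.1, 16.2 and 18.6 CPM in D1 to D7 and at 4.62, 4.40, 3.30, 3.20, 3.18, 4.99 and 1.55 CPM in R1 to R7. The groups did not overlap. Its log2 fold change reached -2.06 (SE 0.286, 95% interval -2.64 to -1.49, adjusted p = 1.28e-05), and the mean went from 550% to 129% of the naive 2.78 CPM. Nupr1, a small stress-induced nuclear protein, went from 12.5 to 22.2 CPM (median 13.6) to 0.516 to 6.71 CPM (median 3.30), also without overlap, a log2 fold change of -1.99 (SE 0.34, adjusted p = 0.000582). Remyelination levels of both genes are near the naive ones and rest on a few counts per library. Ddit3, which codes for the death-linked factor CHOP, was not called (27.0 ± 5.64 and 20.4 ± 3.95 CPM; -0.40, 95% interval -0.72 to -0.08, adjusted p = 0.559), nor was Ddit4, an inhibitor of mTORC1 (31.9 ± 7.05 and 25.4 ± 3.45 CPM). Trib3, a further ATF4 target, was too low to be tested, with 36 counts over the 7 demyelination libraries and 26 over the 7 remyelination libraries. Gdf15, a stress cytokine, had 9 and 0.

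Amino acid synthesis and transport genes, which the same response controls, gave 1 call among 22 measured, with 21 of 22 fold changes below 0 and 8 with an unadjusted p under 0.05, all lower (median -0.19). Slc7a11 (ENSMUSG00000027737.11) exchanges glutamate for cystine, the precursor of glutathione. It went from 39.1 to 62.7 CPM (median 47.5) to 24.8 to 32.3 CPM (median 29.3), without overlap, a log2 fold change of -0.80 (SE 0.164, adjusted p = 0.00781). Its naive mean was 33.0 CPM. Psph, the last enzyme of serine synthesis, had 31.8 ± 4.84 and 19.0 ± 6.28 CPM and missed the threshold (-0.71, adjusted p = 0.0647). Slc7a11 was also the only call among 23 antioxidant genes of the Nrf2 pathway (median -0.08).

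The windows of Slc7a11 and Nupr1 are shown because both hold, in capitals, a match to TGATGNAA, the composite element that C/EBP and ATF factors share. They are at chr3:50443564-50443863 and chr7:126625421-126625720, both on the minus strand of GRCm38.p6.

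Slc7a11: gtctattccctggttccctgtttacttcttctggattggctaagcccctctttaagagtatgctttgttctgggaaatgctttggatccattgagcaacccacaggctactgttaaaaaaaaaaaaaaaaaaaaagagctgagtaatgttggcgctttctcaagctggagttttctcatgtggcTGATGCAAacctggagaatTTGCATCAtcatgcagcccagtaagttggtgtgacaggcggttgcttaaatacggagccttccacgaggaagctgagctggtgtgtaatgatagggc

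Nupr1: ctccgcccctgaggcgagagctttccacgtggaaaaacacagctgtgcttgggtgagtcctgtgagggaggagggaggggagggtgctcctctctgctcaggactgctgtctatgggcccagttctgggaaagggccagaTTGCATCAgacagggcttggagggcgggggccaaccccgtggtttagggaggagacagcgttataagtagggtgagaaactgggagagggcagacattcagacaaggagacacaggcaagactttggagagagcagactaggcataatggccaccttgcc

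In Slc7a11 there are 2 matches, on opposite strands, which begin at positions -66 and -47, and in Nupr1 the match begins at -110. TGATGNAA was found in the windows of 4 of 20 lower genes, which were Nupr1, Slc7a11, Ctsl and Lgals3bp, in 0 of 20 higher genes, in 2.65% of tested genes and in 3.97% of all windows. No match was found in any window of Atf5 or of the other lower genes with a window, which says only that these letters are not in those windows. The full cyclic AMP response element, TGACGTCA, was found in 1 lower gene, Lrrc8a, in no higher gene and in 3.73% of tested genes. The motifs were picked with the calls known, so the shares are descriptions.

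Another 2 transcription factors fell. Cebpd, a C/EBP factor of inflammation, went from 20.5 to 42.5 CPM to 4.40 to 18.3 CPM without overlap (-1.05, SE 0.231, adjusted p = 0.0171). Its call was lost without R4 or without D4, which held the highest value (adjusted p = 0.091 without D4). Creb3l1, a membrane-bound factor of the secretory pathway, was at 4.11 to 13.2 CPM and 2.1 to 5.73 CPM (-1.34, SE 0.306, adjusted p = 0.0247). Its call was lost without any of R1, R3, R4, R6, R7, D4, D6 or D7, without the filter on low counts and with a block for the replicate number (adjusted p = 0.0687).

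**Figure D3:**
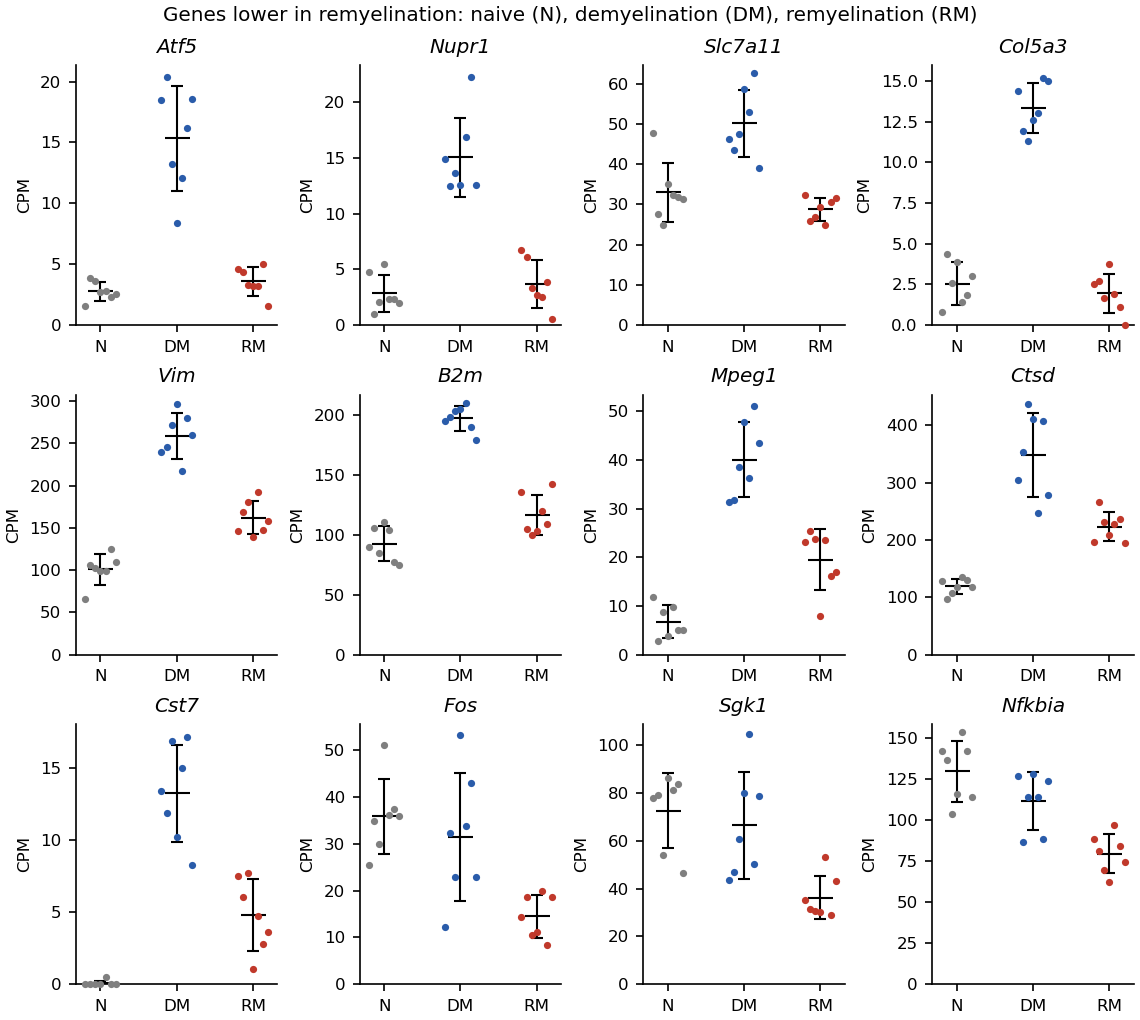
Levels in CPM (vertical axes, each from 0) of 12 genes called lower in remyelination, with 7 naive (N, grey), 7 demyelination (DM, blue) and 7 remyelination (RM, red) libraries as points, the mean as a line and the SD as bars. Atf5, Nupr1 and Col5a3 were near the naive level in RM, Mpeg1, Ctsd, Vim and Cst7 stayed above it, and Fos, Sgk1 and Nfkbia were lowest in RM.

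Genes of disease-associated microglia, a state reached by microglia that take up myelin and lipid, gave 3 calls among 38 measured, all lower, with a median of -0.43; 18 had an unadjusted p under 0.05, all lower, and 36 of 38 fold changes were below 0. The summed level of this list was 4490 to 6990 CPM in demyelination, 3850 to 5250 CPM in remyelination and 3170 to 3780 CPM in naive brain. Apoe alone averaged 2470, 2090 and 1210 CPM in these groups, in the same order, and was not called between the stages (adjusted p = 0.69 in edgeR). Cst7 (ENSMUSG00000068129.6) encodes cystatin F, an inhibitor of lysosomal cathepsins made by activated microglia. It stood at 13.4, 11.9, 16.9, 10.2, 15.0, 17.2 and 8.30 CPM in D1 to D7 and at 7.55, 6.09, 7.71, 1.07, 4.77, 2.77 and 3.62 CPM in R1 to R7, without overlap, while naive brain averaged 0.0671 CPM. The fitted change was -1.43 on the log2 scale (SE 0.32, adjusted p = 0.0202); the call was lost without any of R4, R6, R7, D3, D5 or D6, with adjusted p up to 0.0733.

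Ctsd, cathepsin D, an aspartic protease of the lysosome, went from 246 to 436 CPM (median 353) to 195 to 266 CPM (median 227), with a small overlap (-0.64, SE 0.12, adjusted p = 0.00239). Remyelination remained above the naive mean of 119 CPM by 0.90 (adjusted p = 8.35e-06). Ctsl, cathepsin L, went from 108 to 144 CPM to 60.3 to 112 CPM (-0.53, SE 0.117, adjusted p = 0.0189; lost without R4, D4 or D6, up to 0.0799). Tyrobp, the adaptor through which Trem2 signals, just missed the threshold: 48.8, 44.8, 60.2, 58.7, 45.8, 53.1 and 27.7 CPM against 27.3, 29.1, 35.8, 16, 31.5, 33.3 and 21.7 CPM (-0.79, 95% interval -1.18 to -0.40, adjusted p = 0.051). D7 lay within the remyelination range and the other 6 above it. Spp1, osteopontin, was at 15.5 to 48.0 CPM and 3.33 to 23.7 CPM (-1.24, adjusted p = 0.0637, and 0.0375 with a replicate block).

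Among the members that missed the threshold by more, Itgax was at 12.9 ± 4.01 and 6.68 ± 2.67 CPM (-0.92, adjusted p = 0.348) and Gpnmb, a membrane glycoprotein of foamy microglia, had a change of -0.97 (log2), with an adjusted p of 0.416. Lgals3 was at 24.4 ± 8.75 and 15.1 ± 9.02 CPM, Cd68 at 16.5 ± 4.46 and 10.9 ± 3.37 CPM, and Clec7a at 7.53 ± 2.16 and 4.36 ± 1.74 CPM. Lyz2, lysozyme, was at 89.4 ± 17.0 and 63.4 ± 13.5 CPM (-0.49, adjusted p = 0.404) beside 11.5 CPM in naive brain. Trem2, the lipid receptor, had a log2 fold change of -0.47 (95% interval -0.94 to 0.01) and Apoe, the lipid carrier made by microglia and astrocytes, of -0.24 (-0.46 to -0.02). All 8 of these genes had remyelination means above the naive mean. The chemokines Ccl3 and Ccl4 were too low to be tested, with 70 and 57 counts over the demyelination libraries and 21 and 32 over the remyelination libraries.

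Lysosome and phagocytosis genes gave 2 calls among 41 measured, both lower (median -0.11). Mpeg1, perforin-2, a pore-forming protein of macrophages and microglia, went from 31.3 to 51.0 CPM (median 38.6) to 8 to 25.4 CPM (median 23.1), without overlap (-1.01, SE 0.20, adjusted p = 0.00497). It remained above naive, 6.78 CPM, by 1.58 (adjusted p = 5.45e-05). Ctss, cathepsin S, a protease of microglia that also trims the invariant chain, went from 147 to 190 CPM to 93.9 to 141 CPM without overlap (-0.52, SE 0.118, adjusted p = 0.0246), beside 53.3 CPM in naive brain. Its call was lost without any of R3, R4, R6, D2, D3, D4 or D5 (up to 0.106).

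Complement and Fc receptor genes gave no call in edgeR among 17 measured; 6 had an unadjusted p under 0.05, all lower, DESeq2 called 1, and the median was -0.38. C1qa, a chain of the recognition protein of complement, was at 9.76 to 16.8 CPM (median 14.2) and 1.55 to 11.8 CPM (median 6.93; -0.96, adjusted p = 0.166). Itgb2, the integrin chain of complement receptor 3, had no overlap, 13 to 20.2 CPM against 6.20 to 11.6 CPM, and an adjusted p of 0.0835. C4b, by contrast, was at 34.4 to 62.9 CPM and 33.6 to 56.5 CPM, -0.06 with an interval of -0.43 to 0.30, in both stages above the naive mean of 11.2 CPM.

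Homeostatic microglia genes gave 1 call among 24 measured, Sparc, lower (median -0.12). Of the 24, 15 fold changes were below 0, 4 had an unadjusted p under 0.05, all lower, and DESeq2 called 2. The summed level of this list was 810 to 1010 CPM in demyelination, 703 to 811 CPM in remyelination and 606 to 721 CPM in naive brain. Sparc alone averaged 245, 164 and 193 CPM in these groups, in the same order. Sparc, a matrix-binding protein, is also made by astrocytes and endothelial cells; it went from 187 to 348 CPM to 128 to 195 CPM (-0.58, SE 0.114, adjusted p = 0.00439). Cx3cr1, the fractalkine receptor of microglia, was level: 41.1 to 56.1 CPM (median 49.4) and 40.3 to 62.2 CPM (median 46.4), with a log2 fold change of 0.00 and a 95% interval of -0.35 to 0.36, beside 30.7 CPM in naive brain. P2ry12 and Tmem119, 2 markers of resting microglia, had 0.26 (-0.15 to 0.67) and 0.22 (-0.30 to 0.75). Of the single genes on the disease-associated microglia and lysosome lists, Cst7, Mpeg1, Ctss, Ctsd and Ctsl fell, as did Sparc of the homeostatic list. The interval for Cx3cr1 reached no further than -0.35 and 0.36. Whether the fall of these genes differs from the value of Cx3cr1 was not tested. Markers of monocytes, neutrophils and border macrophages were mostly too low to test, with 3 of the 19 genes of their list measured. The list summed to 17.4 to 52.9 CPM in demyelination and 26.9 to 62.7 CPM in remyelination. It also holds Vcan, which is on the precursor and extracellular matrix lists too. Among those too low to test, the monocyte receptor Ccr2 had 4 counts over the 7 demyelination and 5 over the 7 remyelination libraries. The neutrophil genes S100a8 and S100a9 had 8 and 6 counts in demyelination, 44 and 31 in remyelination and 17 and 10 in naive brain; S100a8 had counts in 4 libraries of each stage and S100a9 in 3 and 7.

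Reactive astrocyte genes gave 3 calls among 20 measured, all lower, with a median of -0.41 and 10 with an unadjusted p under 0.05, all lower. Col5a3 (ENSMUSG00000004098.8), a chain of type V collagen, had the largest fall of any called gene. It went from 11.3 to 15.2 CPM (median 13) to 0 to 3.73 CPM (median 1.91), without overlap, with a fitted log2 change of -2.71 (SE 0.418, 95% interval -3.56 to -1.87, adjusted p = 0.000101). Naive brain averaged 2.55 CPM, and remyelination and naive levels are both near the floor of 3 counts. Vim, vimentin, the intermediate filament of reactive astrocytes, went from 217 to 296 CPM (median 260) to 139 to 192 CPM (median 158; -0.67, SE 0.107, adjusted p = 0.000172). It did not overlap between the stages and stayed above naive, 101 CPM, by 0.68 (adjusted p = 0.000148). Lgals3bp, a secreted scavenger-receptor protein that interferon induces, went from 33.8 to 54.5 CPM to 21.0 to 30.0 CPM without overlap (-0.73, SE 0.173, adjusted p = 0.0386; lost without any of R1, R2, R3, R4, R6, D3, D4, D6 or D7, up to 0.141).

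Gfap, the standard astrocyte filament, did not pass the test: 26.7 to 59.9 CPM (median 44.8) and 22.4 to 40.7 CPM (median 30.5; -0.49, 95% interval -0.84 to -0.13, adjusted p = 0.467), beside 12.4 CPM in naive brain. Serpina3n, a protease inhibitor of reactive astrocytes, was at 16.9 to 47.0 CPM and 12.3 to 29.4 CPM (-0.73, adjusted p = 0.364). Of 28 homeostatic astrocyte genes none was called by edgeR or DESeq2 and 8 had an unadjusted p under 0.05 (median -0.13); Gja1, connexin 43, was at 139 ± 25.3 and 105 ± 17.5 CPM (-0.39, adjusted p = 0.196). Etnppl, a phosphoethanolamine lyase of astrocytes that is on no list here, fell by 0.77 without overlap (48.2 to 71.4 against 22.0 to 41.1 CPM, adjusted p = 0.0229; lost without any of R3, R4, R6, D1, D3 or D7, up to 0.0764). Extracellular matrix genes gave 2 calls among 26, Col5a3 and Sparc (median -0.10).

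Antigen presentation genes gave 2 calls among 9 measured, both lower, B2m and Ctss (median -0.34). B2m (ENSMUSG00000060802.9), the light chain of every MHC class I molecule, was at 179 to 210 CPM (median 198) in demyelination and 99.6 to 142 CPM (median 109) in remyelination. The groups were far apart relative to their spread, 197 ± 10.5 and 116 ± 16.6 CPM, with a fitted log2 change of -0.76 (SE 0.105, adjusted p = 1.28e-05). The naive mean was 92.5 CPM. H2-D1, a class I heavy chain, was at 67.0 ± 14.2 and 46.6 ± 10.4 CPM (-0.51, adjusted p = 0.18). Type I interferon response genes had the lowest median of these lists, -0.52, with 1 call among 14 measured, Lgals3bp, and 7 with an unadjusted p under 0.05, all lower. Ifit1, an RNA-binding protein that interferon induces, was at 7.21 ± 2.30 and 2.99 ± 1.91 CPM (-1.26, adjusted p = 0.332). The window of B2m (GRCm38.p6, chr2:122147437-122147736, plus strand) is shown for its match to the interferon-stimulated response element, searched as GAAA, any 2 bases and GAAA on either strand, the second run of capitals; the first run is a match to CTGGNAC on the opposite strand.

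B2m: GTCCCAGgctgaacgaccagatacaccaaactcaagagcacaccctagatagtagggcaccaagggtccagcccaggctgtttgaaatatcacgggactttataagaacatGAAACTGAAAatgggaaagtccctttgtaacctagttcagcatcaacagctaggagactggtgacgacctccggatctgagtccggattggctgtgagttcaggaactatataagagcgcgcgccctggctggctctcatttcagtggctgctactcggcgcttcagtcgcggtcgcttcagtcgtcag

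The match to the response element begins at position -139. The motif was found in the windows of 3 of 20 lower genes (B2m, Sgk1 and Ctss), 0 of 20 higher genes and 3.4% of tested genes.

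Genes of TNF and NF-kB signalling, the pathway of the floxed receptor, gave 1 call among 20 measured, Nfkbia, lower (median -0.02). Tnfrsf1a, which encodes TNFR1, was at 19.8 to 32.8 CPM (median 27.2) and 15.6 to 28.8 CPM (median 23.8), a log2 fold change of -0.24 with an interval of -0.57 to 0.09, beside 13.4 CPM in naive brain. Tnf itself had 0 counts over the demyelination libraries and 1 over the remyelination libraries.

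A set of rapidly induced genes fell that were not called against naive at demyelination. Of 26 immediate early genes 2 were called, Fos and Tiparp, both lower (median -0.24). An unadjusted p under 0.05 was found for 7, all lower, and DESeq2 called 4. Over the alternative settings, 0 to 4 members were called lower. Fos, a subunit of the AP-1 factor that neurons switch on with activity, was at 12.3, 32.3, 23, 53.3, 33.8, 43.0 and 22.9 CPM in D1 to D7 and 14.3, 18.6, 10.5, 11.2, 20, 8.31 and 18.6 CPM in R1 to R7. D1 lay within the remyelination range and the other 6 above it (-1.07, SE 0.229, adjusted p = 0.0124; 0.0681 without D4). Naive libraries averaged 35.9 CPM: demyelination minus naive was -0.20 (adjusted p = 0.748) and remyelination minus naive -1.28 (adjusted p = 0.000664). Tiparp, an ADP-ribosyltransferase, went from 38.9 to 64.2 CPM to 21.6 to 41.8 CPM (-0.57, adjusted p = 0.0449; remyelination minus naive -0.94, adjusted p = 2.48e-05). Its call was lost without any of R2, R3, R4, R5, R6, D2, D4, D5 or D7 (up to 0.185), with library totals, without the filter on low counts and in a fit of the 14 libraries alone.

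Sgk1, a kinase induced by glucocorticoid, was at 43.7 to 105 CPM (median 60.7) in demyelination, 28.8 to 53.4 CPM (median 31.4) in remyelination and 72.7 CPM on average in naive brain. Remyelination minus demyelination was -0.87 (SE 0.179, adjusted p = 0.00871), demyelination minus naive -0.12 (adjusted p = 0.821) and remyelination minus naive -0.99 (adjusted p = 0.000806). Nfkbia, which encodes the NF-kB inhibitor IkBa, had the same order, 112 ± 17.4, 79.7 ± 11.8 and 130 CPM (-0.48, adjusted p = 0.0321; remyelination minus naive -0.70, adjusted p = 0.000131); its call was lost without any of R3, R4, R6, R7, D1, D3, D4, D5 or D7 (up to 0.131) and in a fit of the 14 libraries alone. Sgk1 and Nfkbia were the 2 calls among 12 glucocorticoid-responsive genes measured (median -0.32, 5 with an unadjusted p under 0.05, all lower). DESeq2 called 3 of the 12. Time of day and handling at collection are not given in the labels. Of 18 clock genes none was called by edgeR or DESeq2 (median -0.09), with Bhlhe41 nearest at 99.6 ± 13.8 and 75.1 ± 19.2 CPM. An unadjusted p under 0.05 was found for 2 of the 18, beside 6.65% of all genes.

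Another 3 genes outside the lists fell. Cited2, a regulator of the coactivator p300, was at 42.1 to 75.3 CPM and 23.1 to 46.1 CPM (-0.68, adjusted p = 0.0237; lost without any of R3, R4, R6, D5, D6 or D7, up to 0.0982). Hist1h1c, linker histone H1.2, went from 28.8 to 53.6 CPM to 18.8 to 32.1 CPM (-0.78, SE 0.162, adjusted p = 0.00913). Lrrc8a, the core subunit of the volume-regulated anion channel, went from 79.6 to 116 CPM to 53.7 to 84.9 CPM (-0.56, adjusted p = 0.0148; 0.0542 without D3, and lost also without D4).

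**Figure D4:**
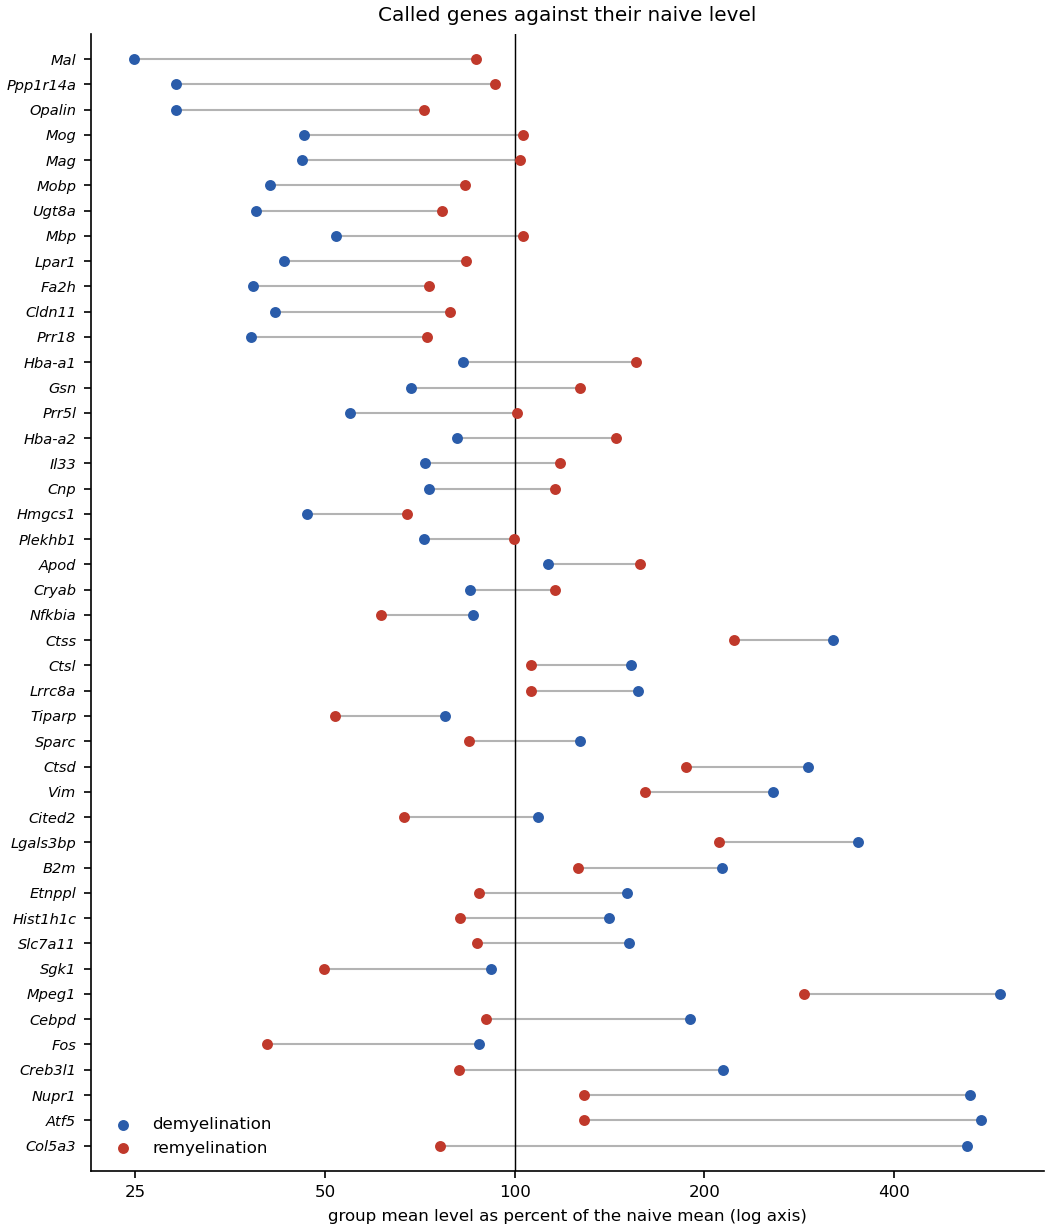
Group means of called genes as percent of the naive mean (log axis) at demyelination (blue) and remyelination (red), joined by a line for each gene; Arfgap2 and Cst7, which were near 0 in 1 of the groups, are left out. Mog, Mbp and Mag lie near 100% in remyelination, Mpeg1, Ctsd, Ctss and Vim stay to the right of it, and Fos, Sgk1, Tiparp and Nfkbia move to the left of it.

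The naive libraries place the called genes by where they ended. In the same fit, demyelination against naive gave 249 called genes (2% of those tested) and remyelination against naive 78 (0.628%). These contrasts share libraries with the one described, so only the values of single genes are set side by side. Among higher genes, Mal, Mbp, Mog, Mag and Plekhb1 had remyelination means of 86.8 to 103% of naive. Mobp, Cldn11, Ugt8a, Fa2h and Opalin were at 83.3, 78.9, 76.8, 73.1 and 71.8% of naive, and none of these was called against naive. Hmgcs1 and Prr18, at 67.5 and 72.5%, were called lower than naive, with adjusted p of 0.00163 and 0.0142. Among lower genes, Atf5, Nupr1, Ctsl, Lrrc8a and B2m were at 106 to 129% of naive, while Ctsd, Ctss, Mpeg1, Vim and Lgals3bp were at 161 to 288%. Ctss stood 1.17 above naive (adjusted p = 6.73e-08) and Lgals3bp 1.08 above (adjusted p = 0.000753).

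Haemoglobin genes moved with the groups. Hba-a1 was at 75.0, 77.0, 96.4, 129, 54.0, 87.4 and 97.6 CPM in D1 to D7 and at 85.2, 87.6, 217, 166, 220, 212 and 170 CPM in R1 to R7, so that R1 and R2 lay within the demyelination range and R3 to R7 above it. Hba-a2 was at 56.4 to 86.1 CPM in demyelination; R2, at 68.6 CPM, lay within that range, R1, at 94.8 CPM, just above it, and the other 5 at 119 to 167 CPM. They rose by 0.91 (adjusted p = 0.0482) and 0.83 (adjusted p = 0.0144), and DESeq2 did not call Hba-a1 (adjusted p = 0.0796). The Hba-a2 call was lost without R3, R6 or D5 and the Hba-a1 call without any of R3 to R7, D1, D2, D3, D5, D6 or D7, with library totals and in DESeq2. The 2 genes are near-identical copies, so how the authors' counting divided reads between them is uncertain. The red blood cell list, with these 2 calls among 5 measured and a median of 0.50, summed to 443 to 557 CPM in demyelination, 529 to 802 CPM in remyelination and 394 to 587 CPM in naive brain; Hbb-bs, a beta chain, had 154 ± 36.1 and 211 ± 40.9 CPM (0.45, adjusted p = 0.389). The part of blood left in the vessels in other results was not tested.

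Arfgap2, a regulator of vesicle coats, had the largest fold change, 7.27 (adjusted p = 0.00022), but not a graded one. It was at 0 in 6 demyelination libraries and at 0.482 CPM in D5. R1 and R7 were at 0 too, and R2 to R6 were at 17.6, 25.3, 35.2, 38.8 and 24.4 CPM. Naive libraries also ranged from 0 to 42.2 CPM. Demyelination was thus at or near 0 throughout, while remyelination and naive libraries each held both zeros and clear levels, so the fold change is not a shift common to the group, and its fitted size depends on the prior count. The zeros are as listed and could not be traced to reads here; whether they reflect expression or the assignment of reads was not tested. In a fit of the 14 libraries alone the gene did not pass the filter on low counts. Hoxa5, which marks the hindbrain and spinal cord, was uneven too: 0, 1.70, 0.47, 5.99, 8.68, 8.59 and 7.11 CPM in demyelination and 0 to 1.65 CPM in remyelination (-3.23, adjusted p = 0.0835). The list of hindbrain and spinal cord markers, 5 measured, had no call in edgeR or DESeq2, 2 genes at an unadjusted p under 0.05 and a median of -0.54; how much caudal tissue each library held was not tested.

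Neuron and synapse genes (41 measured, median 0.08), oxidative phosphorylation (39, median -0.03), trophic factors and receptors (25, median -0.04), iron and copper handling (23, median -0.14) and cell cycle (14, median -0.09) had none in edgeR, with 5, 1, 2, 3 and 5 genes at an unadjusted p under 0.05 (6.65% of all genes), 4 of the 5 cell cycle genes lower, and DESeq2 called 2 cell cycle genes and none of the others. Cdkn1a, the p53 target that stops the cycle, was nearest in edgeR, at 49.1 ± 10.7 and 30.3 ± 6.82 CPM (-0.72, adjusted p = 0.0762). Mki67, a marker of dividing cells, was too low to be tested, with 31 and 33 counts over the 7 libraries of each stage. Mt1 and Mt2, copper- and zinc-binding metallothioneins, were at 651 ± 146 and 575 ± 94.6 CPM and at 631 ± 134 and 482 ± 85.1 CPM. Heat shock genes gave Cryab alone among 20 (median 0).

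Markers of other cells and regions were described in the same way. Endothelial and mural genes (22 measured, median 0.01), choroid plexus (9, median -0.35), ependyma (2, median -0.16), meninges (13, median 0.10), lymphocytes (2, median 0.19), monocytes, neutrophils and border macrophages (3, median -0.01), cerebellum (17, median -0.16), striatum (10, median 0.20), hypothalamus (6, median 0.04) and olfactory bulb (9, median 0.14) gave no call in edgeR or DESeq2. They had 1, 2, 0, 3, 1, 0, 1, 2, 1 and 0 genes at an unadjusted p under 0.05. No pituitary gene was measured above the filter. Ttr, the choroid plexus product, was at 919 ± 210 and 644 ± 174 CPM (-0.51, adjusted p = 0.141). The 13 mitochondrial transcripts and 40 ribosomal protein genes had medians of 0.02 and -0.05, no call in either tool, and 0 and 2 genes at an unadjusted p under 0.05.

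**Figure D5:**
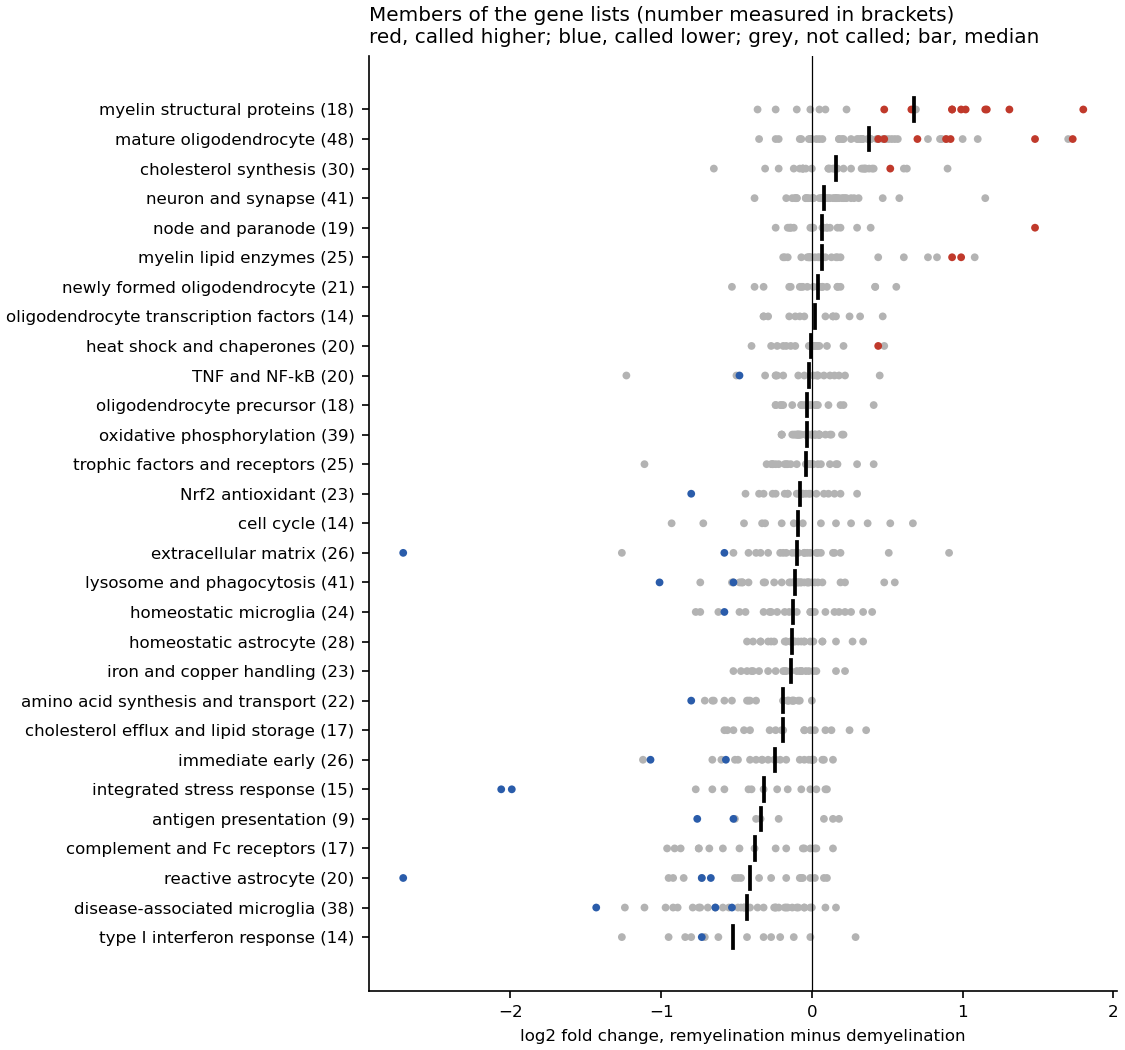
Log2 fold change, remyelination minus demyelination (horizontal axis), of each measured member of 29 gene lists (rows, ordered by median); red points are called higher, blue points called lower, grey points not called, and the black bar is the median. Myelin structural proteins are at the top with a median of 0.67 and 10 red points, and type I interferon response genes at the bottom with a median of -0.52 and 1 blue point.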

How the data were processed

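Whole-brain RNA of 28 mouse libraries, 7 per group, was measured with Lexogen's QuantSeq 3′ FWD kit on TRIzol RNA, per the labels' protocols. The deposited values are expected counts per gene from RSEM, per the file headers; FastQC, cutadapt, STAR, RSEM, edgeR and the build GRCm39 are named in the submitters' processing notes, with no versions or settings. Strand use in counting is not given in the sources used here. Expected counts were rounded, and 10.76% of them fell on genes without a symbol in the name table. Genes were filtered with filterByExpr, scaled by TMM and tested with edgeR 4.0.16 (quasi-likelihood, R 4.3.3) in 1 fit of the 4 groups, remyelination minus demyelination, with Benjamini-Hochberg adjustment over 12423 genes; calls have an adjusted p under 0.05. Naive contrasts come from the same fit. Fold changes are on the log2 scale. The script was tested on simulated data.

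The comparison, its 46 gene lists and its motifs were chosen with earlier results of these data known. Lists are described by counts and medians, with no set test. Genes marked for naming were the 12 largest called changes in each direction at a mean of at least 5 CPM and the 6 smallest p in each direction. Added to these were up to 4 called members of each list (or the member with the smallest p) and a panel of 52 genes. Many smallest-p members of lists without a call are not given above. The other called genes, and further members named for comparison, were added after their values were seen. Genes too low to test are given as counts. A few genes and 1 list are not reported here.

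Replicate numbers were not read as pairs. Same-numbered remyelination and demyelination libraries correlated at -0.01 to 0.4 in their deviations from the group means, 2 of 7 above 0.1. Whether libraries of a number share a batch was not tested. No pair of libraries within a group agreed within sampling noise (chi-square per degree of freedom at least 2.53). Alternatives were DESeq2 1.42.0, other scalings, filters and samples, a replicate block, the mitochondrial share as covariate and leaving out each library. Promoter windows are RefSeq's on GRCm38.p6, matched by symbol for 20 of the 25 higher and 20 of the 23 lower genes. Some genes have several windows, and a gene counts as holding a motif if any of its windows does. The deposited files use another build, and no other coordinates are given.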

Additional observations from a re-analysis of the deposited data

Results flagged for a closer look

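Over 104 named genes and the 2 stages, 208 groups of 7 libraries were checked for a library far from the others, and 10 had a highest or lowest value whose gap to the next exceeded the 95% limit of Dixon's test; chance alone gives about 1 in 20 groups, which is about as many. The high values were Gsn in D6 at 63.7 CPM (next 45.2), Arfgap2 in D5 at 0.482 CPM (all others 0), Ppp1r14a in R2 at 25 CPM (next 12.1), Cebpd in D4 at 42.5 CPM (next 28.8), Itgax in D4 at 21.6 CPM (next 14.1), Hoxa5 in R3 at 1.65 CPM (next 0.636), Col1a1 in R3 at 74.9 CPM (next 28) and Ddit4 in R5 at 32.4 CPM (next 26.3). The low values were Trf in D1 at 163 CPM (next 262) and Apoe in R1 at 1640 CPM (next 2010). D4 and R3 each held 2 of these values. The Cebpd value bears on its call, which was lost without D4, and the Arfgap2 value is under the level of 3 counts.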

How the results depend on the processing

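Over 25 alternatives, 14 of them leaving out 1 library, no called gene changed direction, 26 of the 48 were called under each of the 25, Arfgap2 under the 24 that tested it, and 21 lost the call under at least 1, 19 of them without some single library, with adjusted p up to 0.185. Called genes numbered 73 with DESeq2, 35 higher and 38 lower, and 72 without the filter on low counts, 33 higher and 39 lower, beside 48, 25 and 23 as reported. Leaving out single libraries gave 34 to 56 called, 20 to 26 higher and 13 to 31 lower; the lowest counts of lower genes came without R4 (13) and D4 (14). With the replicate block, 53 genes were called, 27 higher and 26 lower, and 47 of the 48 kept the call, Creb3l1 being lost. Of the 7 remyelination libraries, 3 correlated best with their own number. The labels do not say what the numbers stand for, and they are not read as pairs. Without TMM 42 were called, with RLE size factors 49, with a mean of at least 10 counts 52, with the 14 libraries alone 47, without the most abundant gene 49, with the mitochondrial share as covariate 52, and with unrounded counts 48. Leaving out naive 1 and knockout 1, which stand apart from their groups, gave 64. At 1695221 to 3137254 counts per library, genes of a few CPM are measured from few counts, and a change that missed the threshold is not shown to be absent.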
